A study of Mus musculus with 35 samples.

Results

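The genes described here are the Wnt ligands, their Frizzled receptors and 2 families of secreted antagonists, Sfrp and Dkk. They were chosen by symbol alone, as every probe named Wnt, Fzd, Sfrp or Dkk with a family number, which gave 37 of the 27962 named genes on the array: 19 Wnt, 10 Fzd, 4 Sfrp and 4 Dkk genes, on 49 of 41174 gene probes. Where a gene had several probes, which was so for 12 of the 37, the probe with the highest mean level over the 35 arrays was used.

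The study asked whether mesenchymal stem cells make better iPS cells than other adult cells. The arrays compared 30 mouse iPS clones, both of the ES cell lines EB-3 and RF8, and 1 sample each of the 3 primary sources. The source animals were 6-week-old mice that carried a Nanog-GFP reporter with puromycin resistance. PαS cells were the mesenchymal stem cells of the bone marrow (CD45-, Ter119-, PDGFRα+, Sca-1+), OP cells were osteo-progenitors (CD45-, Ter119-, PDGFRα-, Sca-1-), and TTF were tail tip fibroblasts. Each source was transduced with retroviral Oct3/4, Sox2 and Klf4 together with c-Myc (4F) or without it (3F), and with DsRed, and clones that were GFP+ and DsRed- were picked. This gave 6 groups of 5 clones, named 4F- and 3F-PαS-iPS, OP-iPS and TTF-iPS. Clones were kept with LIF on SNL feeder cells, which are mouse fibroblasts, so that a clone's RNA may hold feeder RNA. Each clone had 1 array, so that the spread within a group is a spread between clones. Whether clones of a group are sisters was not tested, and p-values measure the spread between these samples only.

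Wnt proteins are secreted, lipid-modified signals. They bind Frizzled receptors, most of them together with the coreceptors Lrp5 and Lrp6. This stabilises β-catenin, which joins Tcf and Lef factors at their targets, and some ligands, such as Wnt5a and Wnt11, are better known for routes that do not use β-catenin. Sfrp proteins resemble the ligand-binding part of a Frizzled receptor and bind Wnts outside the cell, whereas Dkk1, Dkk2 and Dkk4 bind Lrp5 and Lrp6, and Dkk3 is a divergent member. In mouse ES cells, Wnt signalling supports self-renewal, and during gastrulation Wnt3 is needed to form the primitive streak. In bone, Wnt signals promote osteoblasts, and Dkk1 and the Sfrp proteins restrain them.

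A level here is the background-corrected log2 intensity of a probe with the array's 75th percentile taken off, so that 0 is the level of a fairly bright probe and the most negative values are those of dim probes. Levels of different genes come from different probes and are not compared. Of all gene probes, 56.6% to 65.7% were well above background on the clone arrays. All clone arrays were scanned in 1 session on 8 slides. EB-3 and the primary cells shared another slide and session, and RF8 had a slide and a session of its own. Session and group therefore cannot be told apart when clones are compared with ES or primary cells. The 4F- and 3F-clones of a source were never on 1 slide together. Among the clones, 4F-OP-iPS #1, #2 and #3 and 4F-TTF-iPS #1 stood apart: Nanog was at -6.13, -3.30, -8.24 and -6.06 in them, against a median of 1.62 over the 30 clones, and Sox2 at -8.09, -2.04, -8.21 and -5.27, against 1.96. Results that rest on these 4 clones are given with and without them.

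Promoters from RefSeq (GRCm38.p6) were matched by symbol to 25 of the 37 genes, and 4 are shown for genes on which the comparisons below turn most: Dkk1 and Wnt3, which were far lower in primary cells than in clones, Dkk2, which was higher there, and Wnt11, which separated clones from ES cells. The capitals mark the core of the Tcf and Lef binding motif, CTTTG, or its longer form, which is CTTTGAT, on either strand. Each is the 250 bases before the start site, on the gene's own strand.
Dkk1 (chr19:30549497-30549746, minus strand): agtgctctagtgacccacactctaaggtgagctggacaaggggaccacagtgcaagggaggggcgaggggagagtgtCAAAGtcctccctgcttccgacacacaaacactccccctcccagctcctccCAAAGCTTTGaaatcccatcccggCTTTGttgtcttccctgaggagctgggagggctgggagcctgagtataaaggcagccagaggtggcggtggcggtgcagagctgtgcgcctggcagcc
Wnt3 (chr11:103773925-103774174, plus strand): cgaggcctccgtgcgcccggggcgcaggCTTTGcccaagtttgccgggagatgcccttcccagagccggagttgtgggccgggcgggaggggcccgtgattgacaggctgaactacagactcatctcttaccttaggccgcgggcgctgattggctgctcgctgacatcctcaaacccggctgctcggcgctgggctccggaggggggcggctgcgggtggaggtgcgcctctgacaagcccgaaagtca
Dkk2 (chr3:132085042-132085291, plus strand): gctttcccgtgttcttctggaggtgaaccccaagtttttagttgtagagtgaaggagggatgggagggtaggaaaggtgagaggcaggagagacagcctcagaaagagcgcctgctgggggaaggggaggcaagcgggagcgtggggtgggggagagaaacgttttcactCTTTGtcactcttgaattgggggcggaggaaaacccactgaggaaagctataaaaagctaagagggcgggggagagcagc
Wnt11 (chr7:98834862-98835111, plus strand): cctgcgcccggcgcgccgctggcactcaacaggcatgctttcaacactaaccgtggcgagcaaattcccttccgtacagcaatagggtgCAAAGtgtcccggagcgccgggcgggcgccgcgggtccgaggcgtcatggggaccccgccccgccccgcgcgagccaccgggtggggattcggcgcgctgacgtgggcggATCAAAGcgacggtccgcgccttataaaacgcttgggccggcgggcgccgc

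Dkk1 held 4 matches to the core, 2 of them adjoining, and Wnt11 held 2, of which 1 was in the longer form. The Wnt3 and Dkk2 windows held 1 match each. The core is common, and 48.6% of the 32851 RefSeq promoters of this length hold it, as do 11 of the 25 matched genes. The longer form stood in 3.21% of promoters and in 2 of the 25 genes, Wnt11 and Wnt5b. The windows of these genes held a median of 22 CpG, against 6 over all promoters, with 37 in the Wnt11 window shown, 22 in Wnt3, 7 in Dkk2 and 6 in Dkk1. A second RefSeq promoter of Wnt11, at chr7:98838595-98838844, held 16 CpG and no match to the core. These matches describe the letters in the window, and nothing was measured on binding.

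Most of the family could be measured in the clones. Probes of 19 of the 37 genes were well above background on all 30 clone arrays, among them 9 of 10 Fzd genes but only 7 of 19 Wnt genes, 1 of 4 Sfrp genes (Sfrp1) and 2 of 4 Dkk genes (Dkk1 and Dkk3). On both ES arrays 29 genes were above background, including all Fzd and Sfrp genes, and on all 3 primary arrays 20 were. These counts are easier to reach on 2 or 3 arrays than on 30, and are not compared. RF8 also had 71.2% of all gene probes above background, the highest share of all arrays. Wnt2b, Wnt8b and Dkk4 were not well above background on any array. The fit tested a gene when all arrays of 1 or more groups measured it, which held for 32 genes and left out those 3, Wnt9b and Wnt10b. Since a gene could enter through the group where it is high, counts over the 32 are descriptions. A gene is called changed in a comparison at limma's adjusted p under 0.05 and at least 2-fold, and 24 of the 37 genes were called in at least 1 comparison.

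**Figure D1:**
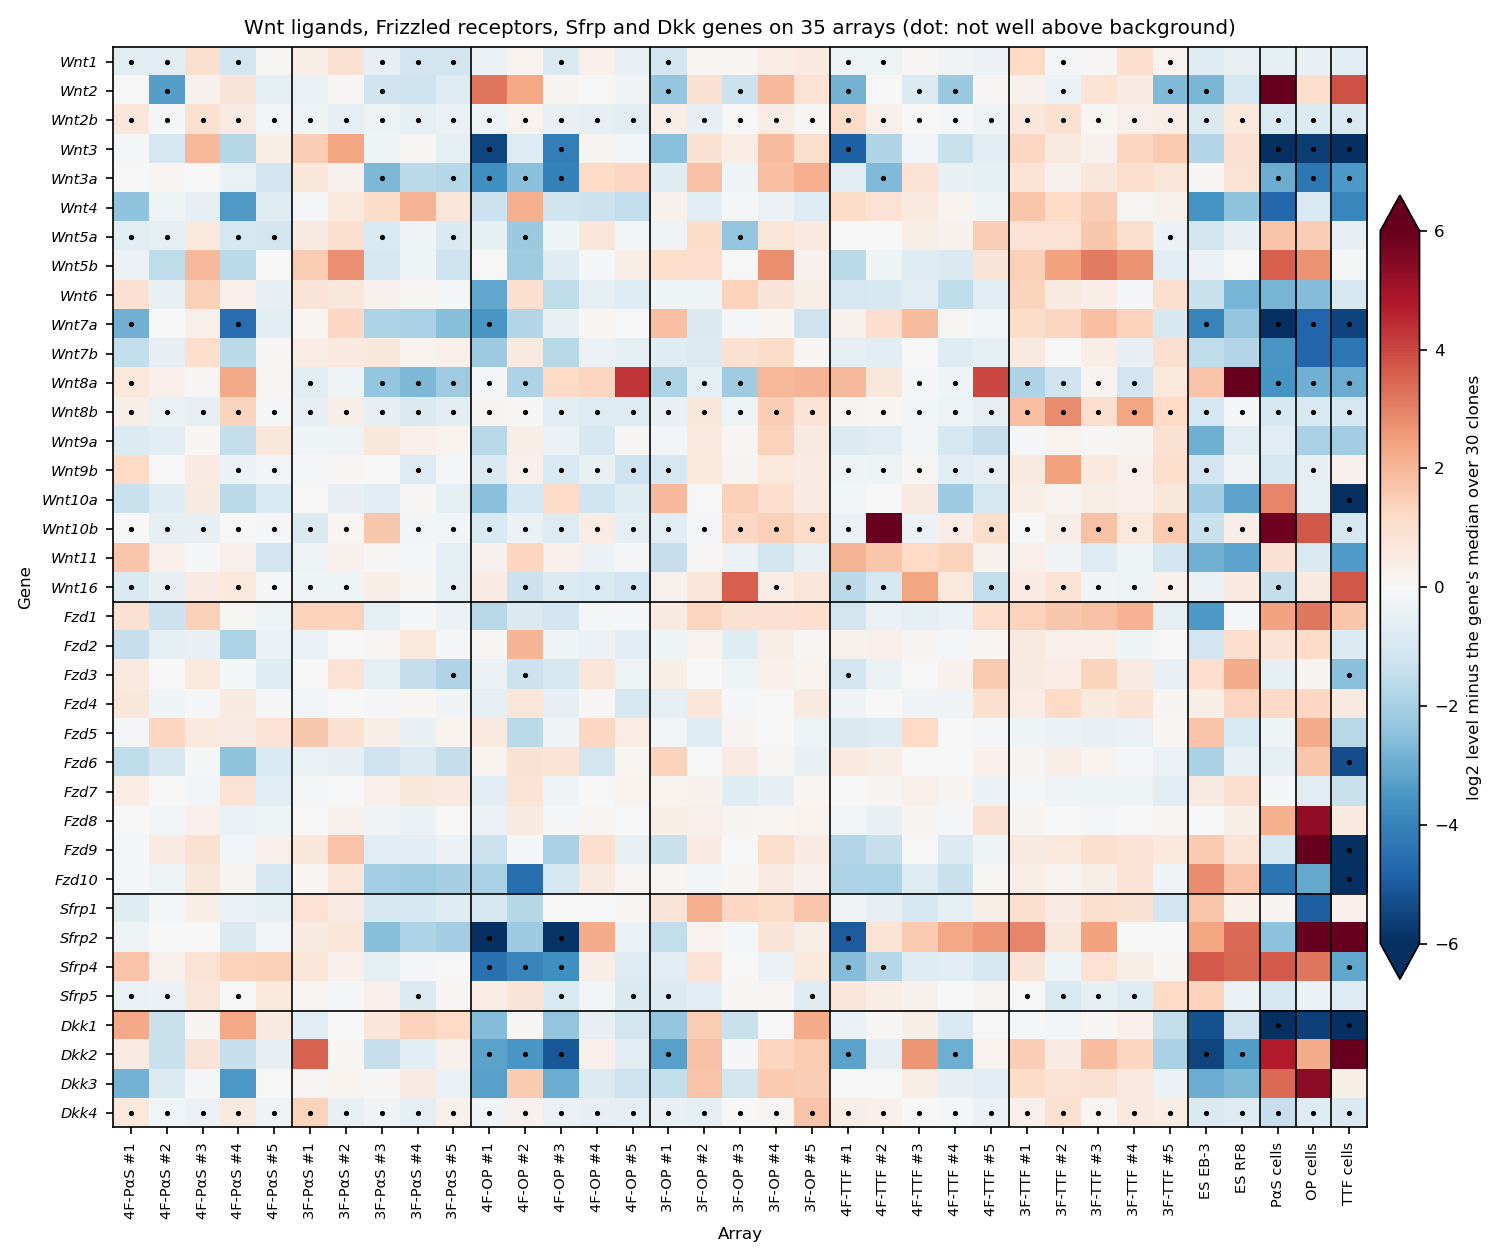
Log2 level of each of the 37 genes (rows, by family) on each of the 35 arrays (columns, by group), drawn as the difference from the gene's median over the 30 clones, with a dot where the probe was not well above background. Many of the strongest colours lie in the 3 primary columns, where Dkk1, Wnt3 and Wnt7a are low, and in the clones 4F-OP-iPS #1 and #3 and 4F-TTF-iPS #1, where Wnt3 and Sfrp2 are low. Single strong cells are Wnt8a in RF8 (level 0.77) and Wnt10b in 4F-TTF-iPS #2 (-1.14).

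The first question is how the source cells differed from the clones made from them. In primary cells, 6 of the 32 genes were called higher and 12 lower, where 15.4% of all probes tested were called higher and 23.7% lower. The 12 lower genes were 9 ligands, the receptor Fzd10 and the antagonists Sfrp1 and Dkk1, and the 6 higher genes were the ligand Wnt2, the receptors Fzd1 and Fzd8 and the antagonists Sfrp2, Dkk2 and Dkk3. Whether the families differed was not tested. The median difference over the 32 genes was -0.68, against -0.14 over all probes. In bulk RNA, fewer cells of a type and less RNA per cell cannot be told apart. The 3 primary arrays are of 3 cell types, so that their spread is one between cell types, and the fit treats them as 1 group.

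Wnt3, the ligand of the primitive streak, was at -8.07 in the lowest clone, -2.58 in the median and -0.23 in the highest, and at -9.14, -8.26 and -8.68 in PαS, OP and TTF cells. It was above background in 27 of 30 clones and in none of the primary cells. The level in the clones was at least 14.5-fold higher, set against the dimmest signal that counted as measured (limma's adjusted p = 7.26e-06). Wnt7a showed the same picture, with clones from -7.34 to -0.86 (median -2.77) and primary cells at -9.36, -7.53 and -8.32. Its probe passed the filter on dim probes through clone groups alone, where it is high. Its being counted among the lower genes thus follows in part from the filter, and neither a size nor a p is given.

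Wnt7b was measured on every array. Its clones ran from -3.15 to 0.12 (median -0.99), and PαS, OP and TTF cells were at -4.46, -5.75 and -5.33, below every clone. The log2 difference was -4.03 ± 0.44 (SE, limma's adjusted p = 1.25e-08). Wnt3a, a ligand often used to activate β-catenin signalling, was above background in 24 of 30 clones, with levels from -8.43 to -2.17 (median -4.35), and in no primary cells, at -7.33, -8.69 and -7.81. It was at least 4.26-fold lower in primary cells, with overlap between the dimmest clones and PαS and TTF cells. Wnt8a was above background in 14 of 30 clones and in no primary cells (-9.32, -8.63 and -8.75), and was at least 2.13-fold lower there, a call that was lost under normexp background correction.

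Among the other ligands, Wnt4 had clone levels from -3.86 to 1.68 (median -0.46) and primary levels of -5.16, -1.39 and -4.37, a difference of -3.16 ± 0.64. OP cells lay inside the range of the clones and the other primary cells below it. Wnt6 was at -3.85, -3.66 and -2.01 in primary cells, within the clones' range of -4.16 to 0.36 (median -1.06), a difference of -2.08 ± 0.49. Wnt9a differed less, by -1.42 ± 0.40, with primary cells at -1.30, -2.53 and -2.69 and clones from -2.29 to 0.79 (median -0.61). Wnt11 was at 0.42, -1.38 and -3.89 in PαS, OP and TTF cells, a difference of -1.22 ± 0.50. PαS cells were thus above the clone median of -0.50, and the call was lost without the OP or the TTF array, under normexp background correction and quantile normalization, with the slide as a random block (adjusted p = 0.0981) and without the 4 clones low in Nanog (-1.10, adjusted p = 0.0687).

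Wnt2 was the single ligand called higher in primary cells. It was at 1.50 in PαS, -3.64 in OP and -0.89 in TTF cells, against -8.00 to -1.49 in the clones (median -4.70). PαS and TTF cells exceeded every clone, while OP cells lay within the clones (difference 3.96 ± 0.89, limma's adjusted p = 0.000384). The highest clones for Wnt2 were 4F-OP-iPS #1 at -1.49 and #2 at -2.38, both of which were low in Nanog.

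Receptors differed in both directions. Fzd8 was narrow among clones, from -3.89 to -2.55 (median -3.44), and was higher in PαS (-1.31) and OP cells (1.86), while TTF cells at -2.85 were inside the range. The difference was 2.65 ± 0.42 (limma's adjusted p = 4.58e-06). Fzd1 was at 2.01, 2.76 and 1.26 in primary cells and at -2.09 to 1.69 in the clones (median -0.41), and TTF cells were again the source that overlapped. Fzd10 was the receptor called lower: its clones ran from -5.36 to 0.02 (median -0.82), and PαS, OP and TTF cells were at -5.20, -3.87 and -8.91, with a difference of -4.64 ± 0.74. PαS and OP cells lay inside the clones' range and TTF cells below it.

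Dkk1, the Lrp5 and Lrp6 antagonist, was low in all primary cells. Its probe lies on chromosome 19, at 30246086 to 30246145 on build mm7. Every clone measured it, from -2.97 to 1.96 with a median of -0.37. OP cells, the single primary source above background, were at -5.95, and PαS and TTF cells were dimmer, at -9.47 and -8.87. No primary array reached the lowest clone. The fitted difference was -7.66 ± 0.80 (limma's adjusted p = 4.09e-09), a size that rests on dim signals in PαS and TTF cells. On the slide that EB-3 shared with the primary cells, the EB-3 level was -5.62, which is nearer to OP cells than to any clone.

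Dkk2 and Dkk3 ran the other way. Dkk2 was at 1.41 in PαS, -1.16 in OP and 3.50 in TTF cells, and at -8.43 to 0.18 in the clones (median -3.37), of which 24 measured it. OP cells overlapped the brightest clones, and the difference was 5.0 ± 1.12 (limma's adjusted p = 0.000389). Dkk3 was at 3.16, 5.15 and 0.10 in primary cells and at -3.68 to 1.45 in clones (median -0.24), a difference of 3.34 ± 0.80 with TTF cells inside the clone range.

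The Sfrp genes depended on the source. Sfrp2 was above every clone (-8.21 to 0.78, median -2.14) in OP (4.36) and TTF cells (5.16), but PαS cells were at -4.60, below the clone median. The difference of 4.14 ± 1.46 lost its call without either of the bright sources, and with the slide as a random block (adjusted p = 0.0557). Sfrp1 was at -3.41 in OP cells, below the clones' range of -0.21 to 3.66, while PαS (1.70) and TTF cells (1.85) were above the clone median of 1.52. Without OP cells the difference in Sfrp1 turned from -1.54 to 0.18, so that the call is one about OP cells, and with the slide as a random block it was lost (adjusted p = 0.0770).

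Several genes that were not called split the primary sources. Fzd9 was at 4.63 in OP cells, above every clone (-3.35 to 0.27), at -2.47 in PαS cells, and at -8.52, below every clone, in TTF cells. Fzd6 and Wnt10a were likewise below every clone in TTF cells, at -7.05 and -8.86, whereas PαS cells had the highest Wnt10a of all arrays (0.69) and OP cells the highest Fzd6 (-0.06). Sfrp4 was at 0.11 in PαS and -0.38 in OP cells, above every clone, and at -6.68 in TTF cells. None of these 4 genes was well above background in TTF cells. Each of these values comes from 1 array with no replicate, and the difference between sources was not tested.

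Fibroblast genes moved with this comparison: 14 of the 18 fibroblast and feeder markers were called higher in primary cells, with a summed level of 9.87 to 10.88 against 7.26 to 9.65 in clones. All 10 pluripotency markers were called lower, as were 6 of 6 trophoblast, 6 of 7 primitive endoderm, 4 of 6 endothelium and 4 of 5 tested primitive streak markers. The summed trophoblast level was -4.18 to -0.55 in primary cells and 4.83 to 9.27 in clones. The summed endothelium level was -2.89 in PαS, -4.07 in OP and 3.03 in TTF cells, against -0.10 to 2.13 in clones. For primitive endoderm it was 2.45, 3.20 and 5.20, against 3.21 to 7.06 in clones. TTF cells were thus above the clones in the first and among them in the second. The TTF sample also held blood markers, with a summed level of 4.30 against -3.17 in PαS and -3.29 in OP cells. Ptprc (CD45) was at 4.14 in TTF cells, -5.75 in PαS cells and -8.63 in OP cells. Of 5 osteoblast markers tested, 4 were called higher in primary cells and Akp2 lower. In OP cells the osteoblast markers Ibsp, Sp7 and Bglap1 were at 3.65, 0.94 and 4.25. Their part in the Wnt results was not tested. Set against EB-3 alone, which shared the primary cells' slide, 15 of the 18 called genes had the same sign as against the clones. The other 3, Wnt4 (0.39), Wnt9a (1.35) and Wnt11 (1.77), were higher in primary cells than in EB-3. Both comparisons use the same primary arrays and the genes were picked by their call. The share over all probes was not computed, so that this count is a description.

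**Figure D2:**
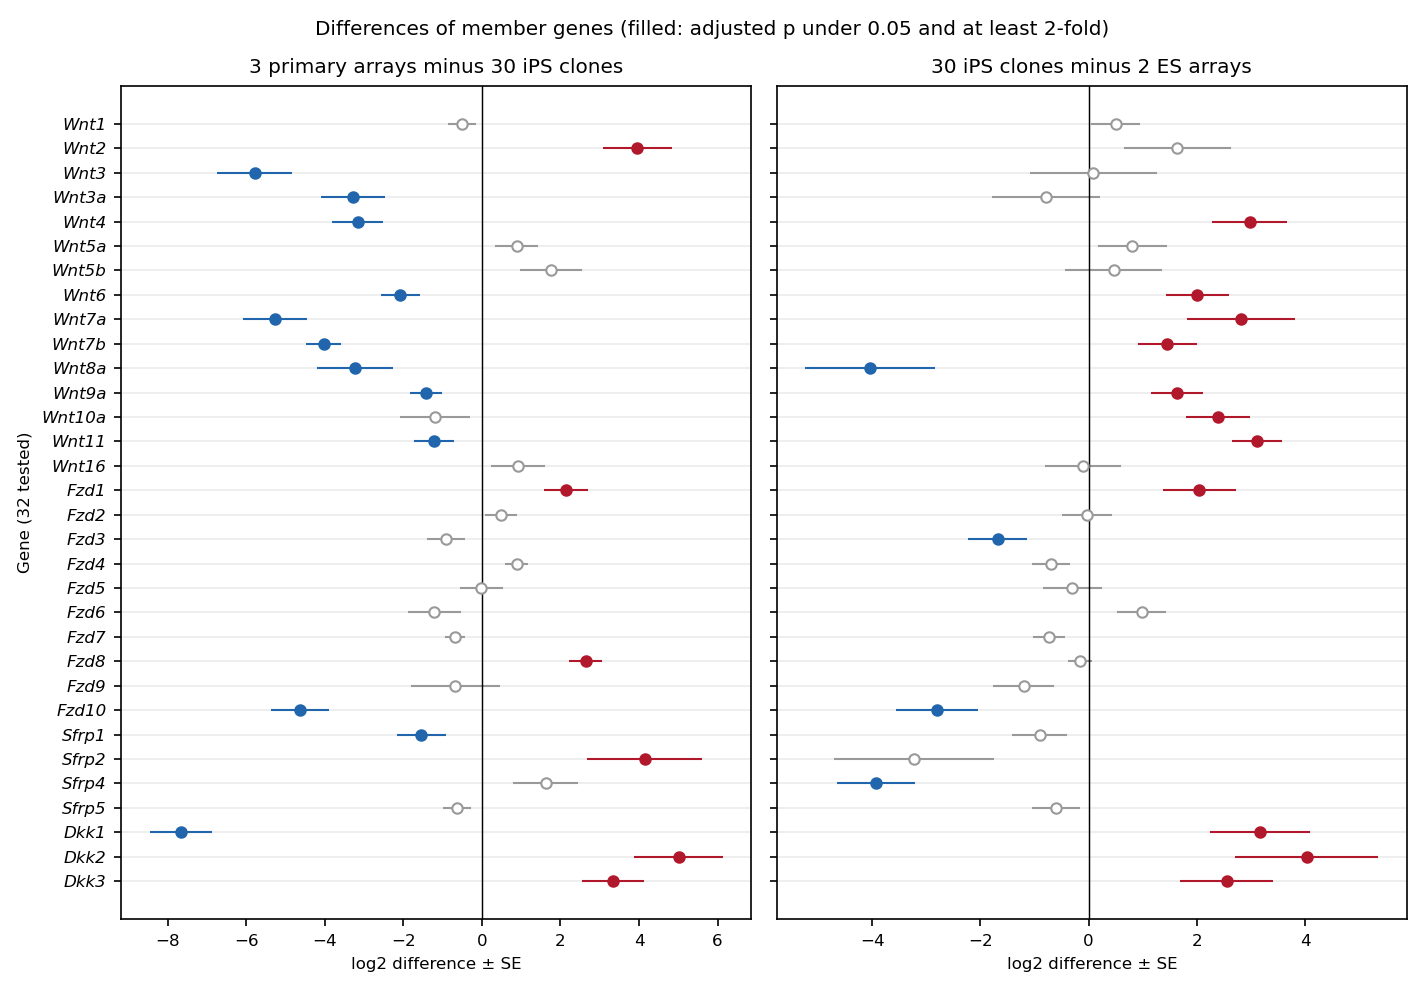
Log2 difference (points) with its standard error (bars) for the 32 tested genes, for primary cells minus clones and for clones minus ES cells. In primary cells Wnt7b lies at -4.03 and Dkk2 at 5.0, and in the clones against ES cells Wnt11 lies at 3.12 and Sfrp4 at -3.93. The points of Dkk2 and Wnt8a against ES cells, of Dkk1 in primary cells, and of Wnt3, Wnt3a, Wnt7a and Wnt8a in primary cells rest on arrays not well above background.

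The next question is how close the clones came to ES cells. Here 11 of the 32 genes were called higher in clones and 4 lower, beside 17.2% and 19.0% of all probes. Higher were the ligands Wnt4, Wnt6, Wnt7a, Wnt7b, Wnt9a, Wnt10a and Wnt11, the receptor Fzd1 and the antagonists Dkk1, Dkk2 and Dkk3, while Wnt8a, Fzd3, Fzd10 and Sfrp4 were lower. The median over the 32 genes was 0.28, against -0.11 over all probes. The ES cells are 2 lines with 1 array each, from different sessions, and for many of these genes the lines lay far apart. This comparison shares the clones with the one before.

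Wnt11 and Sfrp4 differed to a similar degree from each ES line. The clones differed from EB-3 and RF8 by 2.98 and 3.25 for Wnt11 and by -4.04 and -3.83 for Sfrp4. Each line is 1 array, so that no test was read for a single line. Wnt11 was at -1.87 in the lowest clone, -0.50 in the median and 1.56 in the highest, and at -3.39 in EB-3 and -3.65 in RF8. All clones exceeded both lines, and the difference was 3.12 ± 0.46, an 8.68-fold change (limma's adjusted p = 3.76e-06). Its probe lies on chromosome 7, at 94885377 to 94885437 on mm7.

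Sfrp4 went the opposite way, at 0.09 in EB-3 and -0.12 in RF8 and at -8.05 to -1.85 in the clones (median -3.59). No clone reached either line, 25 of the 30 measured the gene, and the difference was -3.93 ± 0.72 (limma's adjusted p = 5.88e-05). The receptor Fzd10 had ES lines at 1.99 and 0.90, above the highest clone at 0.02. These 3 of the 32 genes had no overlap, a smaller share than the 24.3% of all probes whose clones and ES lines did not overlap. Its difference was -2.81 ± 0.76, and a second probe of the gene gave -1.09 and was not called (adjusted p = 0.17).

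For the Dkk genes the clones lay nearer to RF8 than to EB-3. Dkk1 was at -5.62 in EB-3, below every clone, and at -1.59 in RF8, within the clones (-2.97 to 1.96), with a difference of 3.17 ± 0.92 that rests on EB-3. Dkk2 was above background in 24 clones and neither ES line (-8.86 and -6.71). Its probe passed the filter on dim probes through clone groups alone, where it is high. Its being counted among the higher genes thus follows in part from the filter, and neither a size nor a p is given. The call was lost under normexp background correction. Dkk3 was at -3.24 and -2.94 in the ES lines against a clone median of -0.24, a difference of 2.55 ± 0.86. The dimmest clones, from -3.68, overlapped both lines.

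For the 7 ligands called higher, the nearer ES line was not always the same. Wnt4 was at -4.03 and -2.87 in EB-3 and RF8 and had a clone median of -0.46, a difference of 2.98 ± 0.69. Wnt7a was at -6.77 and -5.14 in the ES lines, of which 1 measured it, and its median in clones was -2.77. It passed the filter on dim probes through clone groups alone, where it is high, so that no size is given. In Wnt10a (-4.32 and -5.39 in ES, clone median -2.25) and Wnt6 (-2.37 and -3.84, clone median -1.06) the clones lay farther from RF8 than from EB-3. Wnt7b was at -2.49 and -2.74 in the ES lines (difference 1.46 ± 0.54), and Wnt9a at -3.52 and -1.25 (1.64 ± 0.48). Of the 7, each but Wnt11 had at least 1 clone within the span of the ES lines or below it.

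Wnt8a was the ligand called lower in clones. RF8 had the highest level of all arrays, 0.77, and EB-3 was at -4.03, whereas clones ran from -8.46 to -1.47 (median -5.76) with 14 of 30 above background. EB-3 lay inside the clones' range. The probe passed the filter on dim probes through the ES arrays alone, where it is high, so that its being counted among the 4 lower genes follows in part from the filter, and neither a size nor a p is given. Fzd3 was at -3.14 and -1.92 in the ES lines and at -5.99 to -2.60 in clones (median -4.17). The clones differed by -2.29 from RF8 and by -1.07 from EB-3, each of which is 1 array. The Fzd3 call was lost under normexp background correction, and a second probe of the gene was not called. Fzd1 had one line below every clone (EB-3, -3.87) and one inside the range (RF8, -0.48), with a difference of 2.04 ± 0.67. Leaving out 1 ES line left 1 ES array, and some differences then moved widely. That of Fzd1 was 3.74 against EB-3 and 0.35 against RF8, and that of Dkk1 was 5.18 and 1.16.

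**Figure D3:**
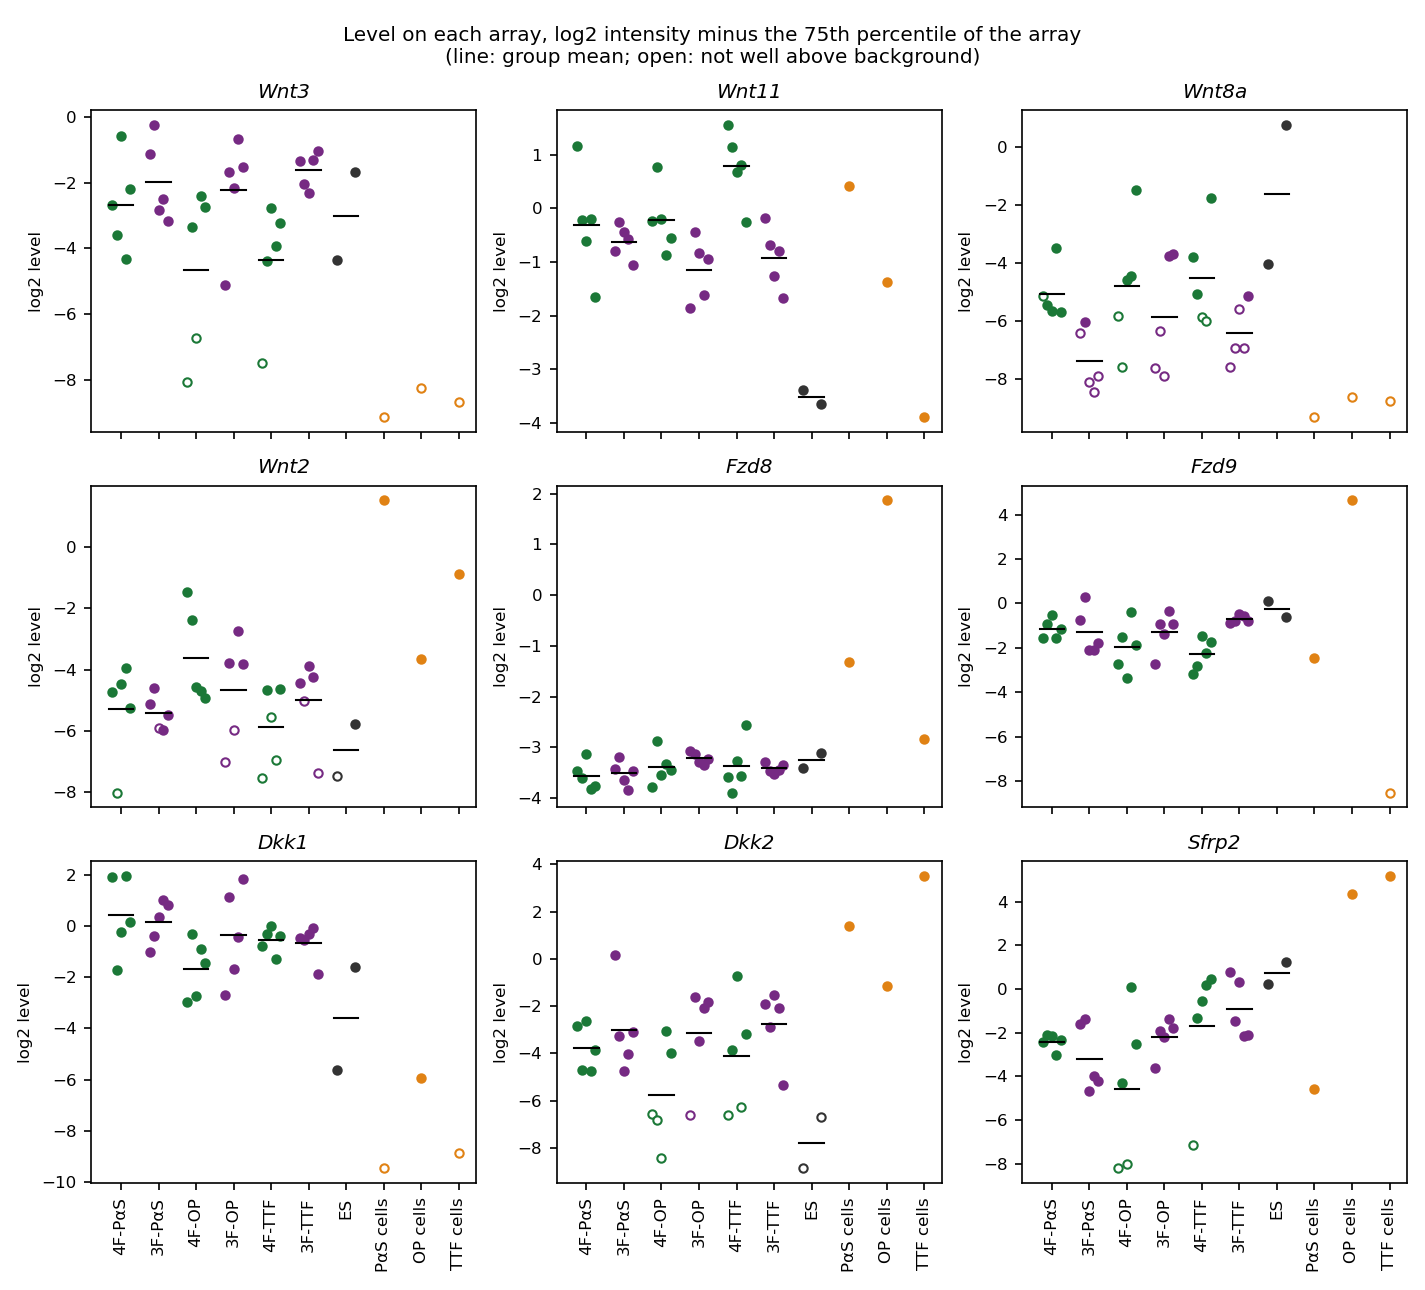
Log2 level by array for 9 genes (Wnt2, Wnt3, Wnt8a, Wnt11, Fzd8, Fzd9, Dkk1, Dkk2 and Sfrp2), with each array as a point in its group, a line at the group mean, and open points where the probe was not well above background. Wnt11 lies between -1.87 and 1.56 in the clones and at -3.39 and -3.65 in the ES lines, and for Fzd9 the OP and TTF primary cells lie at opposite ends (4.63 and -8.52).

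Markers of other cell types differed between clones and ES cells as well. Of the 18 fibroblast and feeder markers, 12 were called higher in clones, whose summed level was 7.26 to 9.65 against 5.35 in EB-3 and 7.92 in RF8. Both ES arrays detected 12 of the 18, and the lines themselves differed, with Col1a1 at -4.62 in EB-3 and 3.13 in RF8. All 7 primitive endoderm markers were called higher in clones, with a summed level of 3.21 to 7.06 against -0.84 to 0.72 in ES cells, and Gata6 ran from 1.20 to 5.16 in clones against -2.77 and -2.74. Of 6 trophoblast markers, 5 were called higher, and of 5 osteoblast markers tested Runx2 (3.54) and Bglap1 (1.78) were called higher and Sp7 lower (-1.03). Of the 10 pluripotency markers 3 were called lower in clones, Zfp42 (-5.34), Tdgf1 (-3.35) and Gdf3 (-2.83), and the median of the list was -2.84. Their part in the Wnt differences was not tested.

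The source of a clone was the next comparison. Between PαS-iPS and OP-iPS clones 2 of the 32 genes were called, where 1.60% of all probes were. Between PαS-iPS and TTF-iPS clones 1 gene was called (0.496% of all probes), and between OP-iPS and TTF-iPS clones none was (0.0217% of all probes). In the latter, limma gave 6 of the 32 genes an unadjusted p under 0.05, beside 2805 of all 27622 probes. The genes were Fzd6 and Sfrp4. Of the cell type markers, Zfp42 (1.81) and Bglap1 (1.13) were called higher in PαS-iPS than in OP-iPS clones and Evx1 (-1.73) lower in PαS-iPS than in TTF-iPS clones, and their part was not tested.

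Fzd6, a receptor of planar cell polarity, was lower in PαS-derived clones. Its levels were -4.14, -2.65 and -1.83 in the lowest, median and highest of 10 PαS-iPS clones, -2.79, -1.54 and -0.33 in OP-iPS clones, and -2.12, -1.52 and -1.11 in TTF-iPS clones. PαS-iPS clones overlapped the others at the top of their range. The difference was -1.28 ± 0.27 from OP-iPS clones (limma's adjusted p = 0.0125) and -1.20 ± 0.27 from TTF-iPS clones (adjusted p = 0.0315). Within the 3 slides that held clones of both, PαS-iPS minus OP-iPS was -1.09, -0.94 and -1.82, and on the slide with PαS-iPS and 1 TTF-iPS clone the difference was -1.0. With the slide as a random block the first call held (adjusted p = 0.0152) and the second did not (0.151). Both fell under the 2-fold minimum with normexp background correction, and the second was lost in 11 of 20 fits that left out a single clone. Without the 4 clones low in Nanog, the difference from OP-iPS was -0.94 (adjusted p = 0.0964). Primary PαS cells had less Fzd6 (-2.28) than OP cells (-0.06) but more than TTF cells (-7.05), each on 1 array.

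Sfrp4 was higher in PαS-iPS than in OP-iPS clones, by 1.81 ± 0.44 (adjusted p = 0.0241). The difference came from a few clones. In 4F-OP-iPS #1 to #5 Sfrp4 was at -8.05, -7.53, -7.28, -3.21 and -4.37, of which the first 3 were not well above background, and in 3F-OP-iPS clones it was between -4.28 and -2.71. PαS-iPS clones ran from -4.19 to -1.85 and thus overlapped the 3F-OP-iPS clones. Within slides the difference was 5.35, 1.60 and -0.12, and with the slide as a fixed block the adjusted p was 0.123. Without the 4 clones low in Nanog it was 0.66 (adjusted p = 0.195). Primary PαS and OP cells had nearly the same level, 0.11 and -0.38.

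**Figure D4:**
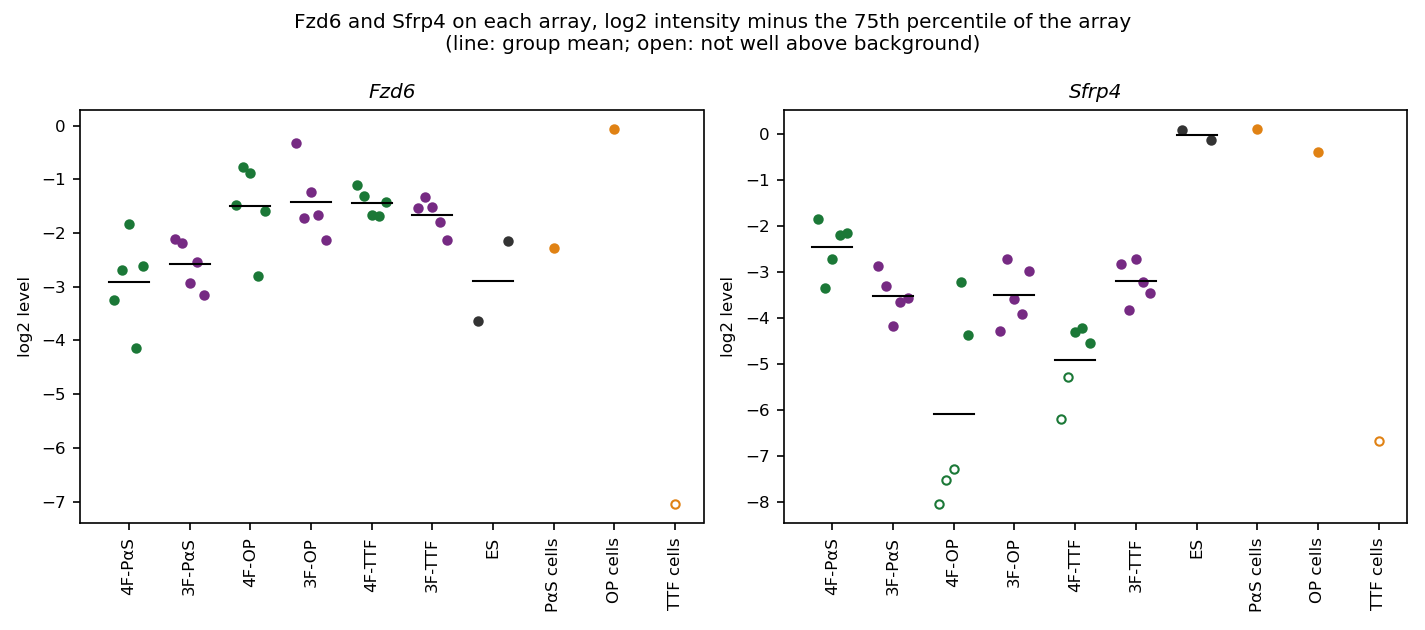
Log2 levels of Fzd6 and Sfrp4 by array (points, open where not well above background) with the group mean (line), for the 6 groups of clones, ES cells and primary cells. PαS-iPS clones lie between -4.14 and -1.83 for Fzd6, while for Sfrp4 the low points of -8.05, -7.53 and -7.28 are 4F-OP-iPS #1, #2 and #3.

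The last comparison is that of 3F- with 4F-clones, which differ in whether retroviral c-Myc was used. In PαS-iPS clones none of the 32 genes was called (0.0181% of all probes). At limma's unadjusted p under 0.05 there were 3 of the 32, beside 4772 of all 27622 probes. In OP-iPS clones 3 were called, all higher in 3F-clones (4.50% of all probes), and in TTF-iPS clones 2 were higher and 1 lower (5.77% of all probes). Averaged over the sources, 7 were higher in 3F-clones and 1 was lower, beside 4.27% and 1.07% of all probes. Within each source the factors were split by slide, and with the slide as a random block no gene was called in any of these comparisons.

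In OP-iPS clones Sfrp1, an antagonist expressed in all clones, was at 0.54, -0.21, 1.55, 1.48 and 1.64 in 4F-clones #1 to #5 and at 2.30, 3.66, 2.76, 2.62 and 3.19 in 3F-clones. The groups did not overlap, and the difference was 1.90 ± 0.44 (limma's adjusted p = 0.0107). Wnt10a was at -4.78, -3.32, -1.11, -3.46 and -2.98 in 4F-clones and at -0.32, -2.21, -0.83, -1.25 and -1.74 in 3F-clones. Here 4F-OP-iPS #3 overlapped the 3F-clones, and the difference was 1.86 ± 0.51 (adjusted p = 0.0253). Sfrp4, given above, was higher by 2.59 ± 0.62 in 3F-clones. Without the 4 clones low in Nanog, which include 3 of these 5 4F-clones, the differences were 1.34 for Sfrp1, 1.95 for Wnt10a and 0.29 for Sfrp4, and none was called. With the slide as a random block they were 2.07, 2.10 and 2.55, with adjusted p of 0.0676, 0.117 and 0.112. Markers called higher in the same 3F-clones were Acta2 (3.24), Tagln (2.52) and Col5a1 (1.63) of fibroblasts, Dppa5 (3.76) and Zfp42 (2.41) of pluripotent cells, Bglap1 (1.83), Gsc (2.53) and Cdx2 (2.47), and their part was not tested.

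In TTF-iPS clones Wnt11 was lower with 3 factors. It was at 1.56, 1.15, 0.68, 0.82 and -0.26 in 4F-clones #1 to #5 and at -0.18, -0.69, -1.26, -0.79 and -1.66 in 3F-clones, so that 4F-TTF-iPS #5 alone fell among them. The difference was -1.71 ± 0.40 (limma's adjusted p = 0.00841). That clone lay on another slide than the other 4F-TTF-iPS clones, and with the slide as a fixed block, which links the factors through clones of other sources, the difference turned to 0.37.

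The receptor Fzd9 was at -3.18, -2.81, -1.46, -2.23 and -1.73 in 4F-TTF-iPS clones and at -0.88, -0.80, -0.48, -0.59 and -0.80 in 3F-TTF-iPS clones. These did not overlap (difference 1.57 ± 0.49, limma's adjusted p = 0.0399). Wnt6 did not overlap either, with 4F-clones at -2.05, -2.01, -1.72, -2.56 and -1.67 and 3F-clones at 0.29, -0.52, -0.66, -1.12 and -0.10 (1.58 ± 0.51, adjusted p = 0.0451). Wnt6 lost its call whichever of the 10 clones was left out, and Fzd9 lost it for 8 of the 10 and without the 4 clones low in Nanog (1.35, adjusted p = 0.0709). Of the markers, Bglap1 was called higher in 3F-TTF-iPS clones (1.71) and Evx1 (-2.85) and Elf5 (-3.88) lower, and their part was not tested.

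Over all sources, Wnt3 levels in 15 4F-clones were -8.07, -3.33 and -0.57 (lowest, median, highest), and in 15 3F-clones -5.11, -1.67 and -0.23, a difference of 1.96 ± 0.59 (limma's adjusted p = 0.0183). The lowest 4F-clones were 4F-OP-iPS #1 (-8.07) and #3 (-6.73) and 4F-TTF-iPS #1 (-7.48), and without the 4 clones low in Nanog the difference was 1.01 (adjusted p = 0.163). Wnt5b was at -4.29, -2.51 and -0.21 in 4F-clones and -3.37, -1.10 and 0.98 in 3F-clones (1.51 ± 0.45), and Fzd1 at -2.09, -0.82 and 1.03 against -0.98, 0.59 and 1.69 (1.14 ± 0.34). Without the 4 clones Wnt5b was at 1.21 (adjusted p = 0.112) and Fzd1 at 0.85 (adjusted p = 0.14), while Sfrp4 went from 1.08 ± 0.36 to 0.21 (adjusted p = 0.554), and none of them was called.

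Dkk3 (1.36 ± 0.43), Wnt10a (1.09 ± 0.30) and Wnt4 (1.01 ± 0.35) were called higher in 3F-clones with and without those clones. Dkk3 was at -3.68, -0.88 and 1.33 in 4F-clones and at -1.71, 0.23 and 1.45 in 3F-clones, Wnt10a at -4.78, -3.16 and -1.11 against -2.95, -1.96 and -0.32, and Wnt4 at -3.86, -0.95 and 1.68 against -1.23, -0.21 and 1.58. The factor groups overlapped for each of them. The Wnt4 call was lost in 15 of 30 fits that left out a single clone, and without the filter on dim probes, and that of Wnt10a in 2 of 30. Normexp background correction and quantile normalization each ended the calls of both, and the slide as a random block ended the calls of all 3. Wnt8a was called lower in 3F-clones: 10 of 15 4F-clones had it above background (-7.60 to -1.47, median -5.12), and 4 of 15 3F-clones did (-8.46 to -3.70, median -6.92). Since most 3F-clones were not measured, no size is given. Limma's adjusted p was 0.0348, and 0.018 without the 4 clones, but the call was lost in 13 of 30 fits that left out a single clone, under normexp and with the slide as a random block. Under quantile normalization the 3 genes Sfrp4, Wnt10a and Wnt4 lost their calls and Wnt11 was called lower, which made the split 4 higher and 2 lower.

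Whether the 3F-4F difference itself differed between sources was tested as an interaction. Sfrp4 was the 1 of 32 genes called, for PαS against OP (0.648% of all probes). Omitting c-Myc went with a difference of -1.06 ± 0.62 in PαS-iPS and 2.59 ± 0.62 in OP-iPS clones, and these differed by -3.65 ± 0.88 (limma's adjusted p = 0.0483). The call was lost with the slide as a random block (adjusted p = 0.0529) or a fixed block (0.264) and in 14 of 20 fits that left out a single clone, and without the 4 clones low in Nanog the interaction was -1.35 (adjusted p = 0.726). No gene was called for PαS against TTF (0.583% of all probes) or for OP against TTF (0% of all probes). At limma's unadjusted p under 0.05, PαS against TTF had 6 of the 32 genes, beside 5343 of all 27622 probes. OP against TTF had 0, beside 1028 of all probes.

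**Figure D5:**
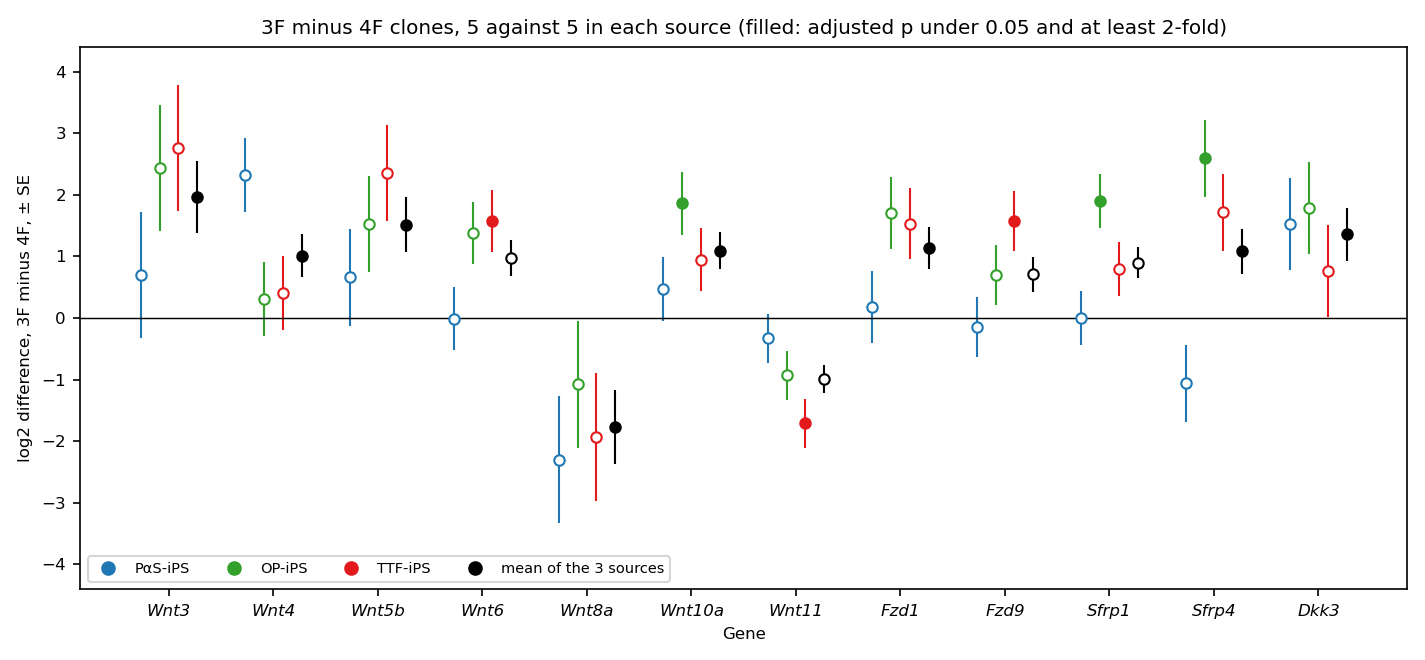
Log2 difference of 3F- minus 4F-clones (points) with its standard error (bars) within PαS-iPS, OP-iPS and TTF-iPS clones and for the mean of the 3 sources, for the 12 genes called in any 3F against 4F comparison (filled where called). Sfrp4 lies at -1.06 in PαS-iPS and 2.59 in OP-iPS clones, and Wnt11 lies at -1.71 in TTF-iPS clones.

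The 8 genes that were tested and never called were Wnt1, Wnt5a, Wnt16, Fzd2, Fzd4, Fzd5, Fzd7 and Sfrp5. Fzd7, a receptor expressed in ES cells, varied little, with clones from -0.54 to 1.06 (median 0.21), ES lines at 0.75 and 1.15, and primary cells at 0.16, -0.45 and -1.11. Fzd2 ran from -0.24 to 3.69 in clones (median 1.64), and the ES lines (0.51 and 2.67) and primary cells (2.51, 2.78 and 0.84) lay within that range. Fzd4 was between -3.63 and -1.47 in clones, and Fzd5 between -4.19 and -0.95.

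Wnt5a was higher in primary PαS (-3.35) and OP cells (-3.56) than in the median clone (-5.05), and was above background in 21 clones. Wnt1 and Sfrp5 were above background in 18 clones each, close to the limit of detection. Wnt16 was above background in 10 clones, with a clone median of -5.87, and was at -2.13 in TTF cells. Of the genes not tested, Wnt10b was at -1.46 in PαS and -3.55 in OP cells and above background in 2 of 30 clones (median -7.30), and Wnt9b was above background in 15 clones.

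Other genes of the pathway were taken from a list of 59, which held coreceptors, R-spondins, further inhibitors, β-catenin partners and targets. In primary cells against clones 8 of the 54 tested were called higher and 14 lower, beside 15.4% and 23.7% of all probes. Among the 8 higher, 3 genes, Rspo2, Rspo3 and Lgr5, passed the filter through the primary arrays alone, where they are high. They count among the 8 in part through the filter, and are described with no test. Rspo2, an R-spondin that amplifies Wnt signals, was at 2.36, 3.93 and 1.85 in PαS, OP and TTF cells and at -8.15 to -4.36 in clones, of which 10 measured it. Lgr5, a receptor of R-spondins, was at -3.89, 1.27 and 0.25 in primary cells and at -8.07 to -3.14 in clones, with 17 of 30 above background, and Rspo3 was measured in all primary cells (-6.51, -1.35 and -3.26) and in no clone. Dkkl1 was lower in primary cells, by 6.27 on the log2 scale. Rnf43, which removes Frizzled from the cell surface, was measured in every clone and in no primary cells, and Celsr1, a planar cell polarity cadherin, in every clone and in 1 of the 3 primary sources.

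Against ES cells 10 of the 51 tested pathway genes were called higher in clones and 9 lower, shares close to the 17.2% and 19.0% of all probes. Lef1 was at 2.18 and 0.87 in EB-3 and RF8, above every clone (-8.20 to 0.56, median -2.98), a difference of -4.51 (limma's adjusted p = 0.00421). Sp5, a direct target of β-catenin, was at 1.20 and 0.44 and also above every clone (-6.76 to -0.51, difference -4.23, adjusted p = 0.00174). Axin2, another target, was at -2.14 and -1.54 against clones at -8.36 to -2.74 (difference -2.63, adjusted p = 0.0191). All 3 were thus below both ES lines in every clone, and clones and ES lines did not overlap for 24.3% of all probes. Of the 8 Wnt target genes tested, these 3 were called lower and 0 higher, and the others were not called. The median difference over the 8 was -1.63. Higher in clones were Bcl9l (3.64), a β-catenin partner, and Dkkl1 (3.32). So was the secreted antagonist Frzb, at -2.43 to 2.36 in clones and at -8.90 and -2.94 in ES cells. Frzb passed the filter on dim probes through clone groups alone, where it is high, so that no size is given.

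Between the sources of clones few pathway genes were called. Dkkl1 was higher in PαS-iPS than in OP-iPS clones (1.01), and Kremen2, a Dkk receptor, was lower in PαS-iPS than in TTF-iPS clones (-1.20). With 3 factors, 2 of the 51 genes were higher in OP-iPS clones, Rspo1 (2.86) and Tle2 (1.06), where 4.50% of all probes were called. In TTF-iPS clones 3 were (5.77% of all probes): the Wnt inhibitor Wif1 (2.78), Nkd2 (1.85) and Pygo1 (1.20). Over all sources Rspo1 (1.46) and Nkd2 (1.15) were higher. Porcn, the enzyme that adds the lipid to Wnt ligands, was lower in 3F-clones, with a median of 0.61 against 2.20 in 4F-clones (difference -1.32). Of these 10 calls among clones, 1 (Dkkl1) held with the slide as a random block, and 2 (Dkkl1 and Porcn) held without the 4 clones low in Nanog. No pathway gene was called for 3F against 4F in PαS-iPS clones or for OP-iPS against TTF-iPS clones.

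Since feeder cells are fibroblasts, the levels were also set against the fibroblast and feeder markers across the 30 clones, as the mean level of the 18 markers (0.44 to 3.95). For the 19 genes measured in all clones, 9 had a Pearson correlation with an adjusted permutation p under 0.05, and all 9 were positive: Fzd1, Dkk3, Sfrp1, Wnt5b, Fzd9, Fzd10, Dkk1, Fzd4 and Wnt9a. Among all probes measured in every clone, 7.66% had an r as high as the lowest of these (0.46) and 9.10% one as far below 0. By Spearman's rho Fzd8 passed (rho = 0.44, adjusted permutation p = 0.0369) and Wnt9a did not (rho = 0.37, adjusted permutation p = 0.0742), and without the 2 clones named next Wnt9a had r = 0.32. Fzd1 was highest, with Pearson's r = 0.72 (permutation p = 1e-05, the smallest that 100000 permutations can give, adjusted 0.00019) and Spearman's rho = 0.76 (p = 1e-05). Leaving out the 2 clones with the most extreme marker levels, 4F-OP-iPS #1 and 3F-OP-iPS #2, gave r = 0.68, and r was 0.63, 0.79 and 0.83 within PαS-iPS, OP-iPS and TTF-iPS clones.

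Dkk1 had r = 0.51 (permutation p = 0.00375, adjusted 0.0102) and rho = 0.43 (p = 0.0175), but 0.39 without those 2 clones and -0.06 within PαS-iPS clones. Within PαS-iPS clones r was also low for Fzd4 (-0.22), Fzd10 (-0.03), Sfrp1 (0.18) and Fzd9 (0.23). It was 0.60 for Dkk3, 0.71 for Wnt5b and 0.61 for Wnt9a there. Without the 2 clones Fzd4 had r = 0.39. Wnt11 had r = -0.34 (permutation p = 0.0646, adjusted 0.0944) and rho = -0.38 (p = 0.0403), and Fzd6 had r = -0.09 (p = 0.636) and rho = -0.20 (p = 0.289). Slides held at most 4 clones, too few for a value within a slide. Of the 8 genes called for 3F against 4F over all sources, Fzd1, Dkk3 and Wnt5b are among the 9, and 5 of the 18 fibroblast markers were called higher in 3F-clones. So were 3 of 6 trophoblast markers, Hand1 (2.45), Cdx2 (1.93) and Krt18 (1.0), and the pluripotency marker Dppa5 (1.74), and the primitive streak marker Evx1 was lower (-1.49). The part of feeder RNA or of these other cell types in the levels was not tested.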

How the data were processed

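Labelled RNA of 35 samples was hybridized to Agilent 1-colour mouse arrays. The deposited intensity values were background-subtracted by the authors' scanner software (Feature Extraction), with no scaling between arrays. The authors also deposited a log2 table, centred on each probe's median, which correlated at 1.00 with the values used here. Control spots and outlier flags were left out, spots of a probe averaged, and log2 intensity was reduced by each array's 75th percentile. Each gene was represented by the probe of highest mean. Groups were compared with limma 3.58.1 (R 4.3.3) and Benjamini-Hochberg adjustment over all tested probes, 27622 without and 28300 with the primary cells. The fit was tested on simulated data. Correlations had permutation p-values (scipy 1.17.1, 100000 resamples). Probe positions are those of the array design (mm7).

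Genes called in any comparison are named, and of other pathway genes at most 3 per direction. The members and lists were chosen with earlier results of these data known. Alternatives were normexp background correction (offset 50), quantile normalization, the authors' table, other filters on dim probes, other probes, slide or clone number as a block, no fold minimum, and single samples or the 4 clones low in Nanog left out. The clone numbers carry no pairing by the labels. Of 75 same-numbered pairs of clones, 18 had a correlation of deviations over 0.1 (-0.479 to 0.445). The highest correlation between arrays was 0.991, so that none was a duplicate.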

Additional observations from a re-analysis of the deposited data

Results flagged for a closer look

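Among 144 groups of 5 clones examined (each of these genes measured in the group), 10 had 1 clone set apart from the other 4 by Dixon's test, where chance alone gives about 1 in 20. Of these, 6 were the clone 3F-TTF-iPS #5, which shared its slide with the clones #2, #3 and #4 of its group. Dkk1 was at -1.86 in it (others -0.53 to -0.05), Fzd1 at -0.98 (others 0.96 to 1.69), Sfrp1 at 0.36 (others 2.02 to 2.52) and Wnt7a at -3.75 (others -1.66 to -0.97), all lower. Wnt9a at 0.32 (others -0.68 to -0.42) and Wnt10a at -1.56 (others -2.03 to -1.90) were higher.

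Of the other 4, Sfrp2 was at -7.15 in 4F-TTF-iPS #1 (others -1.34 to 0.45), a clone low in Nanog. Wnt4 was at 1.68 in 4F-OP-iPS #2 (others -1.95 to -1.65), Wnt7b at -1.02 in 4F-TTF-iPS #3 (others -1.77 to -1.57), and Wnt8a at -3.49 in 4F-PαS-iPS #4 (others -5.68 to -5.12).

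The 3F-4F difference of Sfrp4 differed between PαS-iPS and OP-iPS clones, by -3.65 ± 0.88 in limma's test of the difference (adjusted p = 0.0483), and by -1.35 (adjusted p = 0.726) without the 4 clones low in Nanog. The call was also lost with the slide as a random block (0.0529) or a fixed block (0.264) and in 14 of 20 fits without a single clone.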

How the results depend on the processing

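The counts of called genes changed as follows. Between PαS-iPS and OP-iPS clones (2 called), normexp background correction gave 0, probes above background on every array 1, the slide as a fixed block 1, and leaving out the 4 clones low in Nanog 0. Between PαS-iPS and TTF-iPS clones (1 called) these gave 0 under normexp, 0 with the slide as a random block and 2 without the 4 clones. For 3F against 4F, OP-iPS clones (3) went to 0 with the slide as a random block and to 0 without the 4 clones, and TTF-iPS clones (3) to 0 with the slide as either kind of block. Over all sources (8) the counts were 3 under normexp (3 higher, 0 lower), 5 above background on every array, 0 with the slide as a random block, 4 without the 4 clones and 13 with no fold minimum. The interaction between PαS and OP (1) went to 0 under quantile normalization, without the filter, above background on every array, with either slide block and without the 4 clones, and that between PαS and TTF (0) to 1 under normexp, without the filter and without the 4 clones. Clones against ES cells (15) gave 15 under normexp, 13 of them shared, with Dkk2 and Fzd3 lost and Fzd9 and Sfrp2 gained. Primary cells against clones (18) gave 10 above background on every array, and the split of 6 higher and 12 lower became 8 and 10 under normexp and 10 and 11 under quantile normalization, where the median over all probes moved from -0.14 to 0.04. Leaving out 1 sample at a time gave 1 to 2 for PαS-iPS against OP-iPS, 0 to 1 for PαS-iPS against TTF-iPS, 0 to 1 for OP-iPS against TTF-iPS, 0 to 1 for 3F against 4F in PαS-iPS, 1 to 8 in OP-iPS, 1 to 4 in TTF-iPS and 5 to 11 over all sources, 0 to 3 for the interaction between PαS and OP, 18 to 23 for primary cells and 6 to 18 for clones against ES cells. The cause of these shifts was not tested.

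Of 1846 alternatives for the 51 named differences, 1678 kept direction and call, 166 lost the call and 2 reversed: Wnt11 for 3F against 4F in TTF-iPS, 0.37 with the slide as a fixed block, and Sfrp1 in primary cells, 0.18 without OP cells (-2.45 to 0.18 over the samples left out). Other probes of the same gene gave no call for Fzd10 and Fzd3 against ES cells, Wnt6 for 3F against 4F in TTF-iPS, or Sfrp1 in primary cells. The clone numbers do not pair the clones (6 of 30 clones correlated best with their own number), and with the replicate number as a block the calls were 2, 1 and 0 between sources, and 0, 4, 4 and 7 for 3F against 4F in PαS-iPS, OP-iPS, TTF-iPS and all sources. No such block could be made for the ES and primary cells. A gene of the set that no array of a group measured in a comparison has a bound in place of a fold. No size is given where it passed the filter only through groups in which it is high. Where some arrays of a group were dim, the fitted difference rests in part on dim signals.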

Other observations

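Single clones held a ligand that was near background elsewhere. Wnt10b, which is known for promoting bone formation, was at -1.14 in 4F-TTF-iPS #2, while the other clones were at most -5.55, and it was at -1.46 and -3.55 in primary PαS and OP cells. Wnt16, a ligand of bone and skin, was at -2.29 in 3F-OP-iPS #3 and -3.50 in 4F-TTF-iPS #3, against a clone median of -5.87 and a level of -2.13 in TTF cells. These clones were picked out after their values were seen, each has 1 array, and no test was made.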
